A study of Mus musculus with 3 samples.

Results

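A lung tumour from a mouse transgenic for AID (activation-induced cytidine deaminase, AID Tg) was compared with normal lung of a wild-type (Wt) mouse on a single array. The lung values came from the deposited table of differentially regulated genes, in which 2288 spots stood under the heading for genes up in the lung tumour and 4064 under the heading for genes down. After 196 spots of genes on the X and Y chromosomes were left out, the remaining 6156 spots represented 5111 genes of the 26609 autosomal genes on the array design, or 19.2%. The series has 3 samples, a liver, a stomach and a lung tumour, each on 1 two-channel Agilent array. The liver and stomach tumours were each set against nontumour tissue of the same AID Tg mouse, whereas the lung control came from a different animal of a different genotype. Transgene and animal therefore differ between the lung channels along with the tumour, and these cannot be told apart. The labels do not give the promoter that drives the transgene, or the age, sex, strain or number of the mice. With 1 array, no replicate and no dye swap, no test between conditions was possible, and every value describes that array alone.

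AID converts cytosine to uracil in DNA and is known from B cells, where it drives hypermutation and class switching of antibody genes. Normal lung is built of thin alveolar type I cells, which carry gas exchange, alveolar type II cells, which secrete surfactant, a dense bed of capillary endothelium, and airways lined by ciliated and secretory club cells. Tumours arising from lung epithelium often keep alveolar or club cell genes, and poorly differentiated ones can lose them and take up gene programmes of other endoderm-derived organs such as stomach and gut.

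The dye labels and the table disagree on direction. The labels put the tumour in Cy3 and normal lung in Cy5, while every spot under the heading for genes up in the tumour was brighter in Cy5. Ratios are for that reason written as log2(Cy5/Cy3), and a gene is Cy5-high where its ratio is positive and Cy3-high where it is negative. The table's headings, and the design text that refers to them, make Cy5 the likely channel of the tumour. Under the dye labels Cy5 would hold normal lung, and all directions would turn. The table held only spots with a ratio of at least 2-fold, so a gene that is not listed was either below 2-fold or left out by a rule the table does not state.

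Several groups of genes were listed mainly on one side, and stretches of promoter from RefSeq (GRCm38.p6) are shown for 3 of them, each reading 5′ to 3′ towards the gene's start and covering the last 80 bases before it. Genes of motile cilia, 41 of 54 of which were Cy3-high, are commonly switched on by RFX factors through the X box, and capitals mark GTTGCC or its complement GGCAAC, a part of that box. The windows are chr11:72361883-72361962 (minus strand) for Tekt1, chr4:126325689-126325768 (minus) for Tekt2, chr14:13670796-13670875 (plus) for Sntn and chr2:21205366-21205445 (minus) for Enkur.
Tekt1: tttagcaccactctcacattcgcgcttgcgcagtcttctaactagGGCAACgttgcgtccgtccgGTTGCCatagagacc
Tekt2: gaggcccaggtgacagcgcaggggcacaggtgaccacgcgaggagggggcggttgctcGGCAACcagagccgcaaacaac
Sntn: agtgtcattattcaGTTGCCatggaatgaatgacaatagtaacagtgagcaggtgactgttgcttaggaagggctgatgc
Enkur: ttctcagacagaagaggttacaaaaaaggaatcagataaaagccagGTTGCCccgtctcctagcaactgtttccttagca

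Genes of glycolysis and the hypoxia response, 24 of 42 of which were Cy5-high, include known targets of the hypoxia-inducible factor, whose response element has the core ACGTG, in capitals below on either strand (CACGT on the other). The windows are chr4:119108665-119108744 (plus) for the glucose transporter gene Slc2a1, chr7:46845724-46845803 (plus) for Ldha, chr4:43506946-43507025 (plus) for Car9 and chr6:82774455-82774534 (minus) for Hk2.
Slc2a1: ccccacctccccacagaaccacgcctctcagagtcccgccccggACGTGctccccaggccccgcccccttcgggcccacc
Ldha: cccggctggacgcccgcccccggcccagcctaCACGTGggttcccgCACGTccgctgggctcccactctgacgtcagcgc
Car9: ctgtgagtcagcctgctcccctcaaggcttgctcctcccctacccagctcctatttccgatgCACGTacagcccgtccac
Hk2: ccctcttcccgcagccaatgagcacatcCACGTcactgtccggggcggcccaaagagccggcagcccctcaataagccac

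Many antigen presentation genes, 20 of 28 of which were Cy3-high, carry a conserved Y box bound by NF-Y, and capitals mark CCAATC or GATTGG. The windows are chr17:34305787-34305866 (plus) for H2-Eb1, chr17:34287824-34287903 (minus) for H2-Aa, chr17:34153111-34153190 (plus) for H2-DMb1 and chr2:122147607-122147686 (plus) for B2m.
H2-Eb1: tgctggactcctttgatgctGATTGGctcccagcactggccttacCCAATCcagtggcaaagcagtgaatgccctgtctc
H2-Aa: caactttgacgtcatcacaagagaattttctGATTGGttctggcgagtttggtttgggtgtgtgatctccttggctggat
H2-DMb1: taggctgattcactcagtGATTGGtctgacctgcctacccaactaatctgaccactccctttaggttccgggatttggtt
B2m: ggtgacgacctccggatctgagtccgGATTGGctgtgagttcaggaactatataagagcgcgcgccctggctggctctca

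In the full promoter windows of 300 bases (250 before the start and 50 after), searched on both strands, GTTGCC lay in 16 of the 31 Cy3-high cilia genes with a RefSeq promoter, against 14.1% of all 27025 genes. It also lay in 7 of 12 cilia genes that were not listed. ACGTG lay in 15 of 22 Cy5-high hypoxia and glycolysis genes, against 21.8% of all genes, and in 7 of 12 members not listed. CCAATC lay in 13 of 15 Cy3-high antigen presentation genes, against 18.2% of all genes, and in 2 of 7 members not listed. Part of the antigen presentation genes are related copies that share their promoters by descent. Other motifs searched had no match among the listed members they were tried on. The sterol response element TCACNCCAC lay in 0 of 10 Cy5-high lipid synthesis genes and in 1 of 10 not listed, against 1.44% of all genes. Among 11 Cy5-high intestinal and gastric genes, the HNF4 site CAAAGTCCA (0.555% of all genes) and the CDX2 site TTTATTG (5.33%) had no match. Among 15 members not listed they had 0 and 1. With shares this low, 0 matches in 10 or 11 genes cannot separate these lists from all genes. A match describes letters in a window and not binding, and the motifs were chosen with the array values known.

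Of all genes on the design, 1801 (6.77%) were Cy5-high and 3284 (12.3%) were Cy3-high, so 35.4% of the genes listed in a single direction were Cy5-high. Another 26 genes had listed probes in both directions. The median log2 ratio was 1.50 among Cy5-high genes and -1.67 among Cy3-high genes, and values ran from 7.26 for Reg1 to -5.55 for Cfd. At 4-fold or more, 486 genes (1.83%) were Cy5-high and 1098 (4.13%) were Cy3-high. The split between directions depends on where the array is centred: moving every ratio by 0.5 log2 units towards Cy5 and counting at 4-fold gave 896 Cy5-high and 615 Cy3-high genes. In bulk tissue, fewer cells of a type and less RNA per cell give the same ratio and cannot be told apart.

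Error could be judged only within the array. Of the probes printed at several places, 12 were listed, with a median SD of 0.07 log2 units between their listed spots. Every spot was listed for 8 of these 12. Over the 812 genes with more than 1 listed probe, the pooled SD between a gene's listed probes was 0.65. A further 1810 genes with several probes had only 1 of them listed. Spots and probes that were not listed do not enter these SDs, which can therefore be too small. Neither figure contains variation between mice or between hybridisations. Among Cy3-high spots, 5.37% had a Cy5 signal below 114, and 1.31% of Cy5-high spots had a Cy3 signal below 130. These levels are the higher of the liver and stomach arrays' 95th percentiles over spots not well above background. Saturation flags were not analysed here, and ratios of the brightest spots, which reached 775000, may be compressed.

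**Figure D1:**
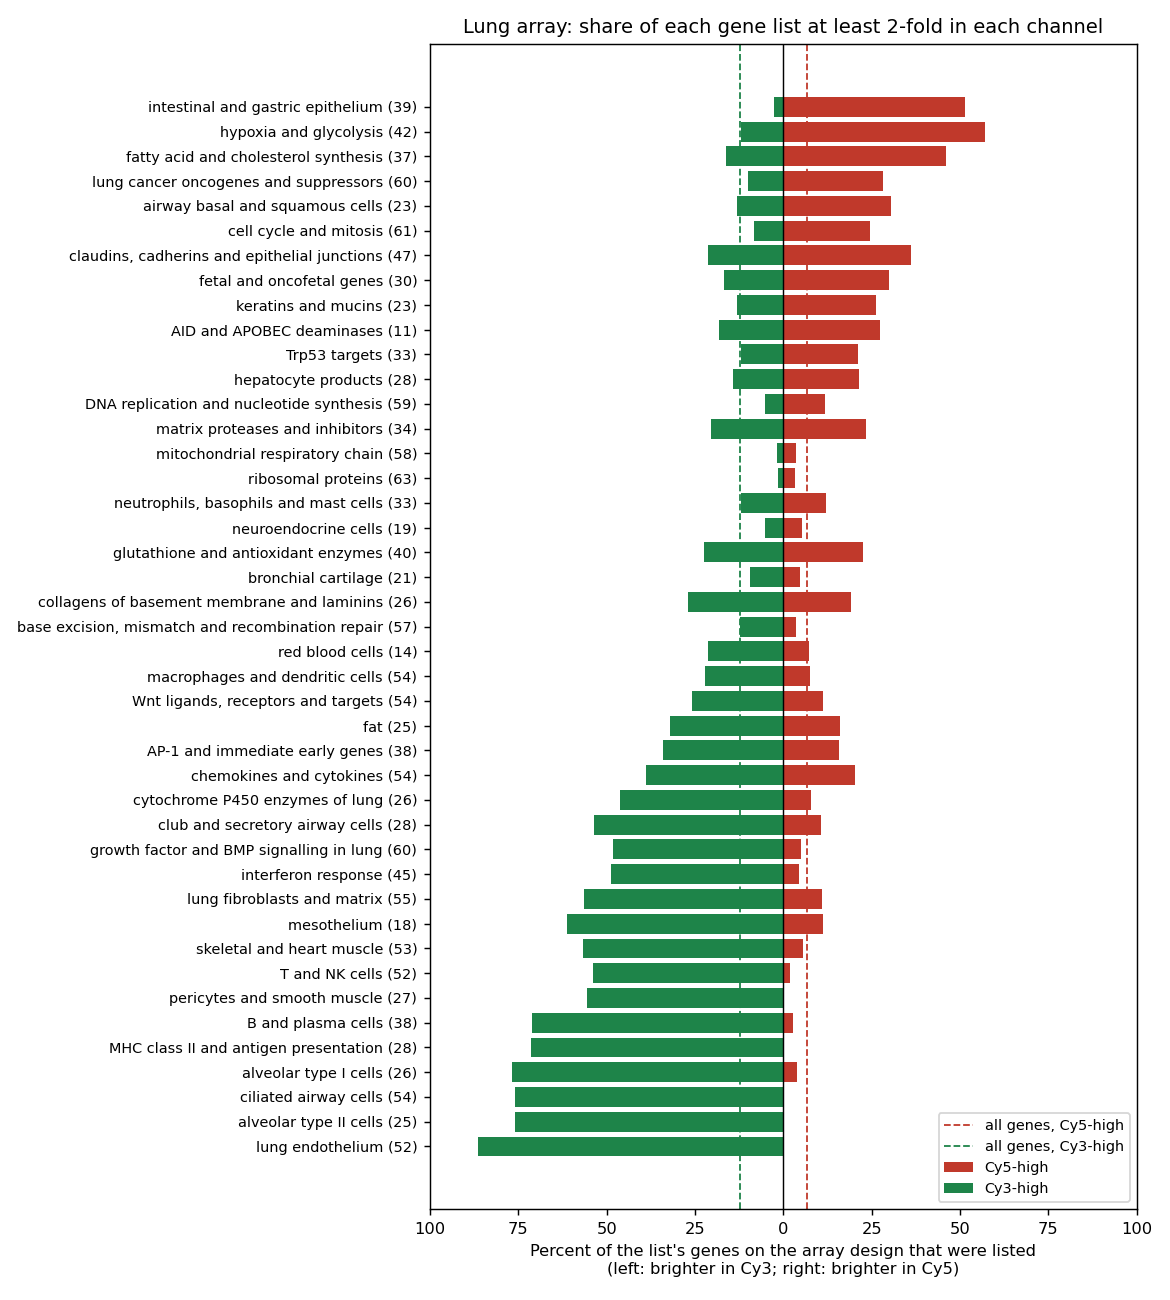
Share of each gene list's members on the array design (number in brackets) that were at least 2-fold brighter in Cy5 (red, to the right) or in Cy3 (green, to the left); dashed lines give the shares over all genes, 6.77% and 12.3%. Endothelial, alveolar and ciliated cell markers reach farthest to the left, and hypoxia and glycolysis, intestinal and gastric, and lipid synthesis genes farthest to the right.

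Most markers of the gas-exchanging alveolus were Cy3-high. Of 25 type II cell markers on the design, 19 were Cy3-high (median -3.05) and none was Cy5-high, and 17 of the 19 were at least 4-fold. Surfactant protein A (Sftpa1), which opsonises microbes in the alveolar fluid, had signals of 325650 in Cy3 and 15047 in Cy5 (log2 ratio -4.28, SD 0.23 between 2 probes). The complement gene Hc had 155000 in Cy3 and 3330 in Cy5, a difference of 46.5-fold. The lung chemokine Cxcl15 was 23.9-fold brighter in Cy3 (SD 0.69 log2 units between 2 probes). Napsa, the protease that processes surfactant proteins, was 15.8-fold, the phosphate carrier Slc34a2 15-fold, and Lpcat1, which makes surfactant phospholipid, 13.9-fold brighter in Cy3. Nkx2-1, the transcription factor that specifies lung epithelium, was 4-fold brighter in Cy3, with signals of 9950 and 2490. Sftpc, a defining type II marker, was on the design with 1 probe and was not listed.

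Type I cell markers gave the same picture, with 20 of 26 Cy3-high (median -3.13) and 1 Cy5-high. The anchoring protein Akap5 was 22.3-fold brighter in Cy3, the intracellular channel protein Clic5 18.3-fold (SD 0.21 between 2 probes), and the receptor Ager, a defining marker, 15.6-fold, with 18900 in Cy3 and 1210 in Cy5. The caveolar coat gene Cav1 had a mean ratio of -3.29, but its 2 probes differed by an SD of 1.75. Krt7, a keratin of simple epithelia, was the Cy5-high member, with 9050 in Cy3 and 40600 in Cy5.

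Airway cell genes were also mostly Cy3-high. Of 28 club and secretory cell genes, 15 were Cy3-high and 3 Cy5-high. Cyp2f2, the club cell P450 enzyme, had 774000 in Cy3 and 21800 in Cy5 (35.5-fold). Cyp4b1 was 21.2-fold and the secreted defence proteins Bpifa1 and Bpifb1 13.6-fold and 12.9-fold brighter in Cy3. The 3 Cy5-high members are also products of mucous or glandular cells: the trefoil peptide Tff2 (15.4-fold), Agr2, which folds mucins (9.33-fold), and lactoferrin Ltf (3.11-fold). Scgb1a1, the main club cell secretion, was not listed. All 41 listed genes of the 54 ciliated cell genes on the design were Cy3-high, with a median of -2.71. Foxj1, the master regulator of motile cilia, had 30000 in Cy3 and 2420 in Cy5, the tubulin-associated Tppp3 was 20.3-fold brighter in Cy3, and Tekt2 and Sntn, whose promoters are shown above, were 12.8-fold and 12.3-fold brighter.

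The endothelium list had the largest share in 1 direction of the 43 lists, with 45 of 52 genes (86.5%) Cy3-high and none Cy5-high. Thbd, which restrains clotting at the vessel surface, had signals of 52900 and 1390 in Cy3 and Cy5, a 38.1-fold difference. Calcrl and Ramp2, the subunits of the adrenomedullin receptor, were 23-fold and 15.5-fold brighter in Cy3, and the flow-responsive factor Klf2 21.3-fold. Claudin-5 (Cldn5), which seals capillary junctions, was 11.1-fold and the VEGF receptor Kdr 9.55-fold brighter in Cy3. Vegfa itself, a ligand of Kdr, had 5190 in Cy3 and 2300 in Cy5 on the 1 listed of its 3 probes.

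Stromal genes were listed mainly on the Cy3 side. Of 55 fibroblast and matrix genes, 31 were Cy3-high and 6 Cy5-high. Of the Cy3-high genes, Inmt was 19.3-fold, the growth factor Wnt2 12.6-fold, the microfibril protein Mfap4 12.2-fold and the transcription factor Tcf21 9.3-fold brighter in Cy3. The 6 on the Cy5 side were the growth factor binding protein Igfbp3 (3.57-fold), fibrillar collagen Col1a1 (590 in Cy3, 1660 in Cy5), Col5a2 (2.03-fold), elastin (Eln, 2.8-fold), fibronectin (Fn1, 2.62-fold, SD 0.16 between 2 probes) and the crosslinking enzyme Lox (2.57-fold). Col1a1 was listed on 1 of 3 probes. Pericyte and smooth muscle genes were Cy3-high in 15 of 27, none Cy5-high, with Tpm1 11.4-fold, Itga8 10.9-fold and the calponin Cnn1 7.86-fold. Of 18 mesothelial genes, 11 were Cy3-high, led by Rspo1 (19.2-fold), and 2 were Cy5-high, Krt19 (22500 in Cy3, 290000 in Cy5) and Msln (22300 and 240000), both of which epithelial tumours also make.

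**Figure D2:**
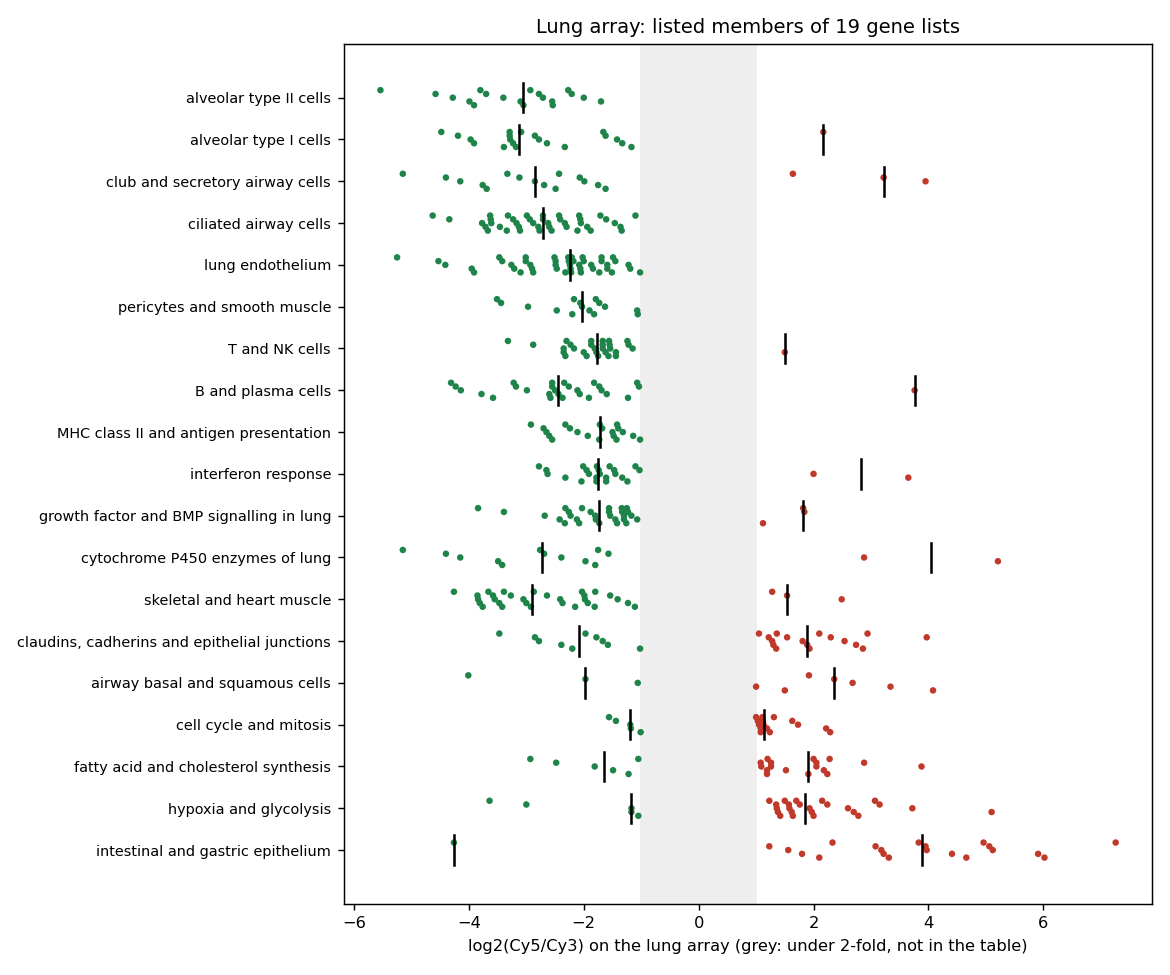
Log2(Cy5/Cy3) on the lung array of the listed members of 19 gene lists, 1 point a gene (red Cy5-high, green Cy3-high), with a black bar at the median of each side; the grey band is the range below 2-fold that the table leaves out. Alveolar type II, ciliated, endothelial, smooth muscle and antigen presentation genes have no point on the right, and the intestinal and gastric list runs from 1.23 to 7.26 with a single gene, Lyz1, on the left.

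Products of gut and secretory epithelia were among the genes with the highest ratios on the Cy5 side. Reg1, a secreted lectin of pancreas and regenerating gut, had 571 in Cy3 and 87800 in Cy5 (154-fold; probe on chromosome 6 at 78446441 to 78446500, build not given in the sources used here). Reg3b, a bactericidal lectin of the gut, was 60.1-fold brighter in Cy5 and Phgr1, a small intestinal protein, 64.8-fold. Among the 12 highest genes were also Ambp, the precursor of the plasma protein alpha-1-microglobulin (85.7-fold), the neutrophil attractant Cxcl5 (73.7-fold), the squamous envelope protein Sprr2f (51.4-fold), the sphingolipid hydroxylase Degs2 (49.9-fold), the aldose reductase Akr1b7 (46.3-fold), the glucuronosyltransferase Ugt2a3 (45.5-fold), the brush border sodium exchanger Slc9a3 (44.8-fold), Khdc1a (119 in Cy3, which is near background, and 5070 in Cy5, so its fold is uncertain; 1 of 2 probes) and the serpin Serpinb5 (42.2-fold). Each was read from 1 probe. Relatives of Reg, Ugt, Akr and Sprr genes can share probe sequence, so their assignment within the family is uncertain.

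Of 39 intestinal and gastric epithelium genes on the design, 20 (51.3%) were Cy5-high and 1 was Cy3-high, and 17 of the 20 were at least 4-fold, against 1.83% of all genes. Anxa10, an annexin of gastric epithelium, was 34.7-fold brighter in Cy5. Villin (Vil1), of the brush border, was brighter by 33.4-fold, with an SD of 0.02 between its 2 probes. The trefoil peptide Tff3 had 1960 in Cy3 and 61200 in Cy5, the galectin Lgals4 was 21.3-fold and liver-intestine cadherin (Cdh17) 15.7-fold brighter in Cy5. The transcription factors Onecut2 (25.2-fold, SD 0.84 between 3 probes) and Pdx1 (log2 ratio 2.33) were on the same side. Hnf4a, Cdx2 and Krt20, which also define these epithelia, were on the design and not listed. Lyz1, the lysozyme of Paneth cells that is close in sequence to the macrophage lysozyme Lyz2, was the Cy3-high member, with 627000 in Cy3 and 32700 in Cy5. Of 28 hepatocyte products, 6 (21.4%) were Cy5-high and 4 (14.3%) Cy3-high, against 6.77% and 12.3% of all genes. The Cy3-high share was thus near that of all genes. The difference of 2 genes between the sides fell to 0 with brighter spots only. Mup1 was 29.6-fold (SD 1.91 between 3 probes) and alpha-fetoprotein (Afp) 9.21-fold brighter in Cy5, and Rbp4 was 8.88-fold brighter in Cy3. Albumin (Alb) was 2.94-fold brighter in Cy5, with signals of 216 and 634. These lists hold markers of neighbouring organs, and whether RNA of other tissue was present in either extract was not tested.

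Squamous and epithelial adhesion genes leaned to the Cy5 side. Of 23 basal and squamous genes, 7 were Cy5-high and 3 Cy3-high: involucrin (Ivl) had 749 in Cy3 and 12700 in Cy5 and Lgals7 154 and 1560, while the basal cell factor Sox2 was 16.1-fold brighter in Cy3. The defining basal markers Krt5 and Trp63 were not listed. Of 47 junction genes, 17 were Cy5-high, with the adhesion molecule Epcam (6030 and 43800) and the epithelial transcription factor Elf3 7.7-fold, desmocollin Dsc2 6.68-fold and Cldn4 4.3-fold brighter in Cy5. The 10 Cy3-high members of this list included the endothelial Cldn5 and the mesenchymal genes Vim (6.86-fold), Zeb1 (4.6-fold) and Zeb2 (3.44-fold). Of 23 keratins and mucins, 6 were Cy5-high and 3 Cy3-high, with Krt19 12.9-fold, Krt23 4.32-fold and the membrane mucin Muc3 4.4-fold brighter in Cy5, and the airway mucin Muc5b 5.63-fold brighter in Cy3. Of 26 basement membrane genes, 5 were Cy5-high and 7 Cy3-high: Lamb3 (2.53-fold) and Itgb4 (4.65-fold), which anchor epithelium, were brighter in Cy5, and Lama2 (2.67-fold), Lama4 (3.13-fold) and Itga8 (10.9-fold), of muscle and vessel walls, in Cy3. Cy5-high members outnumbered Cy3-high ones by 2 with brighter spots only and by 4 where every probe of a gene had to be listed.

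**Figure D3:**
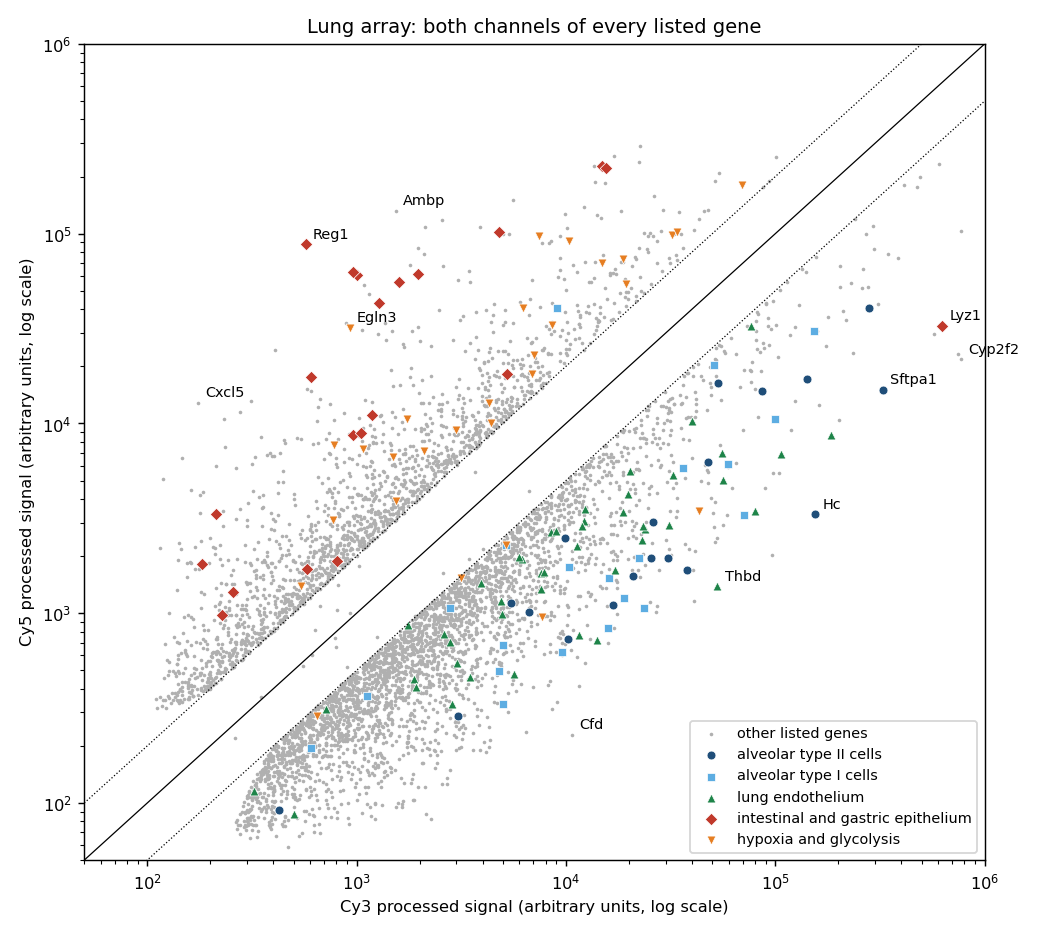
Cy5 against Cy3 processed signal of every listed gene (mean over listed probes, both axes logarithmic); the solid line marks equal signals and the dotted lines 2-fold. Listed alveolar and endothelial markers lie below the lines except Krt7, and intestinal and gastric genes lie above it except Lyz1; points between the dotted lines are genes whose probes were listed in both directions.

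Glycolysis and the hypoxia response formed the list with the largest Cy5-high share. Of 42 genes on the design, 24 (57.1%) were Cy5-high, with a median of 1.84, and 5 were Cy3-high. Egln3, the oxygen sensor that hydroxylates hypoxia-inducible factor and is itself its target, had 927 in Cy3 and 31900 in Cy5 (34.4-fold). Hif1a, the factor's regulated subunit, was 6.06-fold brighter in Cy5, whereas Epas1, its relative that is abundant in endothelium, had 7670 in Cy3 and 960 in Cy5. The stress-induced Ndrg1 was 13.1-fold, the glucose transporter Slc2a1 8.88-fold, the lactate exporter Slc16a3 6.48-fold and the glycolytic enzyme Tpi1 4.71-fold brighter in Cy5. Among other enzymes of glycolysis, Hk2 had a log2 ratio of 1.70, Pfkp 1.76, Gapdh 1.62, Pkm 1.93 and Ldha 1.97, while the phosphofructokinase Pfkm was Cy3-high at -1.05. The other lactate dehydrogenase gene, Ldhb, was 12.5-fold brighter in Cy3 (43300 and 3470). Genes of the mitochondrial respiratory chain were rarely listed, with 2 of 58 Cy5-high and 1 Cy3-high, and the same counts held for 63 ribosomal protein genes.

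Lipid synthesis genes were Cy5-high in 17 of 37 (45.9%) and Cy3-high in 6. Steps of cholesterol synthesis were on the Cy5 side, with the sterol demethylase Cyp51 4.13-fold (SD 0.43 between 3 probes) and the desaturase Sc5d 4.14-fold. The triglyceride enzyme Dgat2 (SD 0.39 between 3 probes) was 14.7-fold brighter in Cy5, and the fatty acid elongase Elovl7 7.35-fold. Scd1, the desaturase, which type II cells use for surfactant, was 7.6-fold brighter in Cy3, as were Acacb (5.59-fold) and Fasn (2.07-fold).

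Detoxification genes were listed on both sides. Lung P450 and monooxygenase genes were Cy3-high in 12 of 26 and Cy5-high in 2, Cyp3a13 (36.9-fold, 2110 and 77900) and Cyp2j6 (7.34-fold). The aldehyde oxidases Aox1 and Aox3 were 11.2-fold and 10.7-fold brighter in Cy3. Of 40 glutathione and antioxidant genes, 9 were Cy5-high and 9 Cy3-high. The alpha class transferases Gsta2 (15.2-fold) and Gsta4 (10.4-fold), the cystine carrier Slc7a11 (3.14-fold) and Gpx2 (3.09-fold) were brighter in Cy5. The mu class transferases Gstm1 (9.46-fold) and Gstm3 (9.47-fold) and catalase (Cat, 6.35-fold) were brighter in Cy3. Transferases within a class are close in sequence, and their probes could read one another.

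Of 61 cell cycle genes, 15 (24.6%) were Cy5-high, with a median of 1.13, and 5 were Cy3-high. That difference of 10 genes fell to 2 at 4-fold and to 2 with brighter spots only. The largest were the cytokinesis genes Kif23 (4.88-fold, SD 0.12 between 2 probes) and Ect2 (4.65-fold). They were followed by the mitotic kinase Cdk1 (298 in Cy3 and 990 in Cy5) and the spindle gene Tpx2 (3.1-fold). Mki67, on the design with 2 probes, was not listed, and 41 of the 61 were not. Among 59 replication genes, 7 (11.9%, against 6.77% of all genes) were Cy5-high, led by the nucleotide reductase subunit Rrm2 (3.23-fold), and 3 were Cy3-high. That difference of 4 genes fell to 0 at 4-fold and to 0 with brighter spots only.

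Of 60 genes altered in lung cancer, 17 (28.3%) were Cy5-high and 6 Cy3-high. Growth factors of the EGF receptor family and the receptor were among them: amphiregulin (Areg) had 1340 in Cy3 and 8840 in Cy5, and Egfr, listed on 4 of 6 probes with an SD of 0.41, was 3.27-fold brighter in Cy5. Myc was 4.69-fold (SD 0.01 between 2 of 3 probes), Mycn 3.42-fold (1 of 2 probes) and Cdk6 3.54-fold (1 of 3 probes) brighter in Cy5. The Cy3 signals of Mycn and Cdk6 were 214 and 168, not far above the level of 130 given above. Sox9, a factor of the embryonic lung tip, was 6.66-fold brighter in Cy5 (SD 0.88 between 2 of 3 probes). On the Cy3 side were Nkx2-1, Sox2, Etv5 (426 in Cy3 and 91.8 in Cy5, the latter near background) and Fhit (2.3-fold). Trp53 targets were Cy5-high in 7 of 33 (21.2%, against 6.77% of all genes) and Cy3-high in 4 (12.1%, near the 12.3% of all genes). The cell cycle inhibitor Cdkn1a had 1320 in Cy3 and 8030 in Cy5. The death genes Pmaip1, Perp and Tnfrsf10b (1 of 3 probes) were 10.4-fold, 8.32-fold and 4.21-fold brighter in Cy5. Sesn1 (1 of 3 probes) was 3.7-fold and Fas 2.73-fold brighter in Cy3.

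Of 54 Wnt pathway genes, 14 were Cy3-high and 6 Cy5-high. Targets of the pathway were listed on both sides. Myc was Cy5-high, as given above, while Axin2 had 2490 in Cy3 and 475 in Cy5, Nkd1 was 10.4-fold and Sp5 6.87-fold brighter in Cy3. Among ligands, Wnt2 (12.6-fold) and Wnt3a (4.58-fold) were Cy3-high, and Wnt4 (6.57-fold) and Wnt10a (2.63-fold) Cy5-high. The feedback ligase Rnf43, also a target, and the co-receptor Lrp5 were 2.23-fold and 2.66-fold brighter in Cy5. Other growth factor and BMP pathway genes were Cy3-high in 29 of 60 and Cy5-high in 3, with the receptor Fgfr2, which the lung epithelium needs to branch, 14.3-fold brighter in Cy3 (1 of 3 probes) and its ligand Fgf7 5.36-fold. Immediate early genes were Cy3-high in 13 of 38 and Cy5-high in 6. Jun (4.97-fold) and Nr4a1 (10.5-fold) were brighter in Cy3 and Fosl1 (3.17-fold) and Fos (2.32-fold) in Cy5.

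Lymphocyte genes were listed mainly on the Cy3 side. Of 38 B and plasma cell genes, 27 (71.1%) were Cy3-high. The immunoglobulin heavy chain Ighm had 89500 in Cy3 and 4590 in Cy5 (SD 0.69 between 2 probes), the joining chain Jchain was 18.8-fold, the survival receptor Tnfrsf13c 13.8-fold and the receptor subunit Cd79b 9.3-fold brighter in Cy3. The Cy5-high member, Ly6d (13.6-fold), is also made by squamous epithelium. T and NK cell genes were Cy3-high in 28 of 52 (median -1.77), and 1, the transcription factor Gata3 (2.82-fold), was Cy5-high. The receptor subunit Cd3d was 5.1-fold, Cd8b1 4.91-fold and the chemokine receptor Cxcr6 9.96-fold brighter in Cy3. Cy5-high minus Cy3-high members went from -27 to -4 for T and NK genes with brighter spots only, and to -8 at 4-fold. For B and plasma cell genes the difference went from -26 to -11 and -18. Many listed lymphocyte genes were thus read from dimmer spots. Antigen presentation genes followed, with 20 of 28 Cy3-high and none Cy5-high: the class II chains H2-Eb1, H2-Ab1 (SD 0.25 between 4 probes) and H2-Aa were 7.55-fold, 6.52-fold and 6.28-fold brighter in Cy3, their regulator Ciita 6.07-fold and the invariant chain Cd74 5.84-fold. Beta-2 microglobulin (B2m), the light chain of class I, was 4.72-fold brighter in Cy3 (SD 0.71 between 3 probes). Interferon response genes were Cy3-high in 22 of 45, such as the guanylate-binding proteins Gbp3 and Gbp4 (6.26-fold and 6.21-fold), and Cy5-high in 2, Oasl1 (12.6-fold) and Irf7 (3.99-fold).

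Myeloid genes were mixed. Of 54 macrophage and dendritic cell genes, 38 were not listed, 12 (22.2%) were Cy3-high and 4 (7.41%) Cy5-high, against 12.3% and 6.77% of all genes. The Cy5-high share was thus near that of all genes. The dendritic cell genes Ccr7 and Ccl17 were 7.38-fold and 5.21-fold and the alveolar macrophage marker Itgax 4.19-fold brighter in Cy3. Arg1, the arginase of alternatively activated macrophages, had 433 in Cy3 and 6970 in Cy5, and Fabp4, with an SD of 0.23 between 3 probes, was 8.95-fold brighter in Cy5. Neutrophil and mast cell genes were Cy5-high in 4 of 33 (12.1%) and Cy3-high in 4 (12.1%, near the share of all genes). The mast cell protease Mcpt4 was 9.88-fold brighter in Cy5, while the mast cell receptor Kit (6.52-fold) and Gata2 (7.07-fold) were brighter in Cy3.

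Chemokine and cytokine genes were also listed on both sides. The neutrophil attractant Cxcl15 was Cy3-high, as given above, whereas the attractants Cxcl5 (175 and 12900), Cxcl3 (13.3-fold), Cxcl1 (3.56-fold) and Cxcl2 (2.3-fold), the lymphocyte attractant Cxcl16 (3.08-fold), the interleukin Il1a (17.8-fold, SD 1.04 between 2 probes) and Tnf (4.31-fold) were brighter in Cy5. The lymphocyte and dendritic cell attractants Cxcl12 (5.81-fold), Ccl19 (5.98-fold) and Ccl5 (5.01-fold) and the epithelial alarmin Il33 (13-fold) were brighter in Cy3. Over the list, 11 of 54 were Cy5-high and 21 Cy3-high. Of 34 matrix proteases and inhibitors, 8 were Cy5-high, led by Mmp7, an epithelial metalloprotease (5030 and 99100), with the plasminogen system genes Plat (4.66-fold) and Plaur (4.52-fold), and 7 were Cy3-high, including the inhibitors Timp2 (8.88-fold) and Timp3 (6.25-fold).

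Markers of tissues around the lung also differed between channels. Of 53 skeletal and heart muscle genes, 30 were Cy3-high and 3 Cy5-high; the atrial light chain Myl7 had 56300 in Cy3 and 2930 in Cy5 and the heart troponin Tnni3 was 12-fold brighter in Cy3 (SD 0.08 between 2 probes). Mouse pulmonary veins carry a sleeve of heart muscle. The Cy3-high set also held skeletal muscle myosin Myh4 (12.6-fold). Of 25 fat genes, 8 were Cy3-high and 4 Cy5-high, with the fat cell protease Cfd 46.7-fold and Adipoq 5.42-fold brighter in Cy3. Haemoglobin genes Hbb-bt and Hba-a1 were 4.91-fold and 4.46-fold brighter in Cy3, each with an SD of 0.15 between probes. The part of these tissues in the Cy3-high genes was not tested.

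Of the 11 AID and APOBEC family genes, Cda (5.1-fold), Apobec1 (3.25-fold) and Adat2 (2.68-fold) were Cy5-high, and Apobec2 (7.26-fold) and Adarb1 (2.8-fold) Cy3-high. Apobec1 is abundant in small intestine and Apobec2 in muscle. Of 57 repair genes, 2 were Cy5-high and 7 Cy3-high (12.3%, the same share as over all genes). Tdg, a glycosylase that removes deaminated bases, had an SD of 0.01 between 2 probes and was 2.32-fold brighter in Cy5, and the glycosylases Mbd4 (3.02-fold) and Smug1 (2.56-fold) and the polymerase Polb (3.21-fold) in Cy3. Smug1 and Polb were each listed on 1 of several probes.

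The same genes were then read on the liver and stomach arrays, which were processed from scanner files and share the dye orientation of the lung array. On the stomach array, 214 genes (0.877%) lay 2-fold or more on the Cy5 side and 353 (1.45%) on the Cy3 side. These figures, and others given for all genes there, average all measured probes of a gene. The lung genes were averaged over their lung-listed probes only, so the 2 sets of figures are not strictly alike. Of 1795 lung Cy5-high genes measured there, 153 (8.52%) were Cy5-high in stomach too, and 42 were Cy3-high. Of these 1795, 79.6% had a ratio above 0, against 50.2% of all genes on that array. Of 3183 lung Cy3-high genes, 162 (5.09%) were Cy3-high in stomach, and 17 were Cy5-high. These counts depend on how the stomach array was normalized: the lung Cy5-high genes also Cy5-high there numbered 294 with the scanner software's ratios and 448 with median centring and no loess. A dye effect that is particular to a gene would act alike on both arrays and, without a swap, cannot be told apart from a difference between tissues.

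Of the 20 intestinal and gastric genes Cy5-high in lung, 10 were at least 2-fold Cy5-high in stomach and 18 lay above 0, among them Phgr1 (2.60), Reg1 (2.17), Vil1 (2.03) and Lgals4 (1.79). All 15 cell cycle genes Cy5-high in lung lay above 0 in stomach (0.61 to 1.61), 11 of them at 2-fold or more. Of the 5 cell cycle genes Cy3-high in lung, 4 also lay above 0 in stomach (median 0.56), and Mki67, not listed in lung, was at 1.53. Cell cycle genes thus lay mostly above 0 in stomach whatever their direction in lung. Of the 24 hypoxia and glycolysis genes, 10 lay above 0 in stomach, none reached 2-fold, and Egln3 was at 0.52. The 17 lipid synthesis genes all lay above 0 in stomach (0.12 to 1.37), and 1 reached 2-fold. Among genes Cy3-high in lung, all 15 of the smooth muscle list lay below 0 in stomach and 7 reached 2-fold, while 14 of 17 type II cell markers (median 0.13) and 17 of 28 T cell genes lay above 0.

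**Figure D4:**
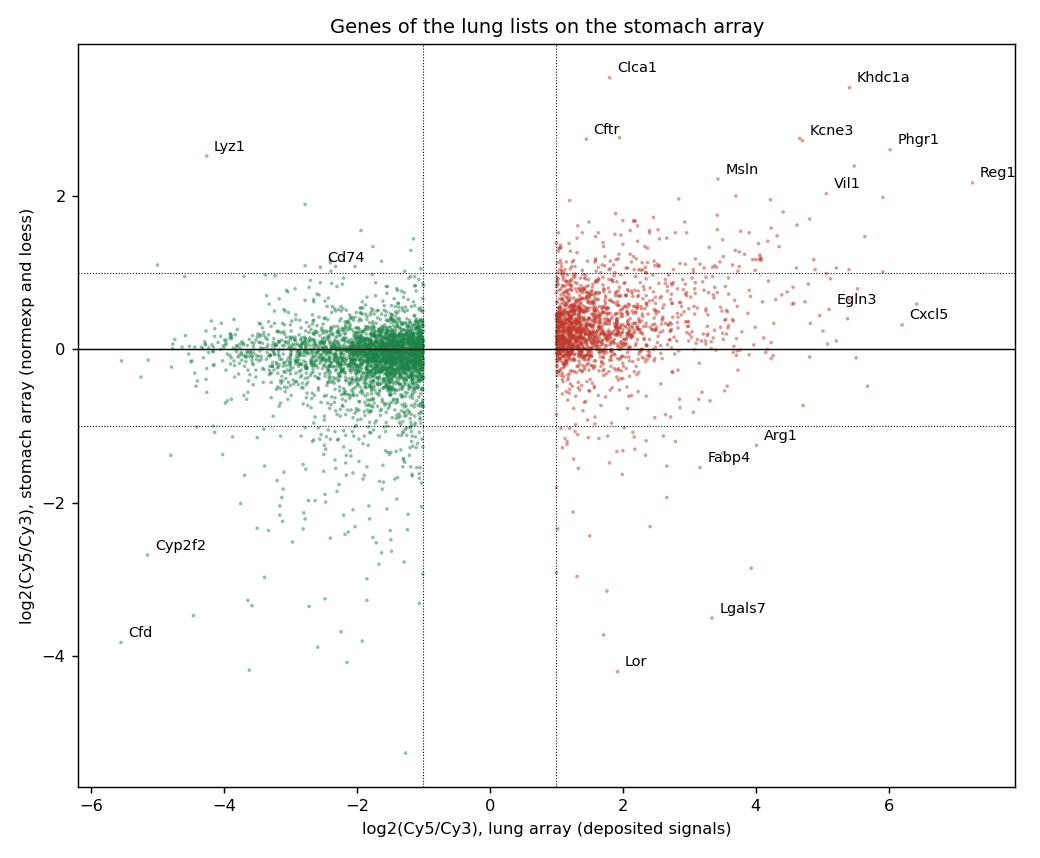
Log2(Cy5/Cy3) of the lung-listed genes on the lung array (horizontal) and the stomach array (vertical); dotted lines mark 2-fold. Of the lung Cy5-high genes (red), 153 lie above the upper dotted line and 42 below the lower one, and the intestinal genes Reg1, Phgr1, Vil1 and Kcne3 are high on both.

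On the liver array only 36 genes (0.146%) were 2-fold Cy5-high and 18 (0.0730%) Cy3-high. As for stomach, figures for all genes average all measured probes, and those for lung genes the lung-listed probes only. Of 1770 lung Cy5-high genes measured in liver, 12 were Cy5-high and 8 Cy3-high, and 47.0% lay above 0, against 52.8% of all genes. The 12 became 48 with the scanner software's ratios and 26 with median centring and no loess. The 12 included alpha-fetoprotein (4.69 in liver, 3.20 in lung) and the fetal growth factor Igf2 (3.53 in liver, 1.82 in lung). Of 19 lung Cy5-high intestinal and gastric genes measured in liver, none reached 2-fold, with a median of 0.10. Of 3191 lung Cy3-high genes, 4 were Cy3-high and 18 Cy5-high in liver, and 67.0% lay above 0. The 4 became 37 with the scanner software's ratios and 1 with median centring. The genes 2-fold in 1 direction on all 3 arrays were Cyp2f2, the retinol carrier Rbp4 and Selenbp1, all Cy3-high. Cyp2f2 had ratios of -5.15 in lung, -1.33 in liver and -2.68 in stomach; no gene was Cy5-high on all 3.

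**Figure D5:**
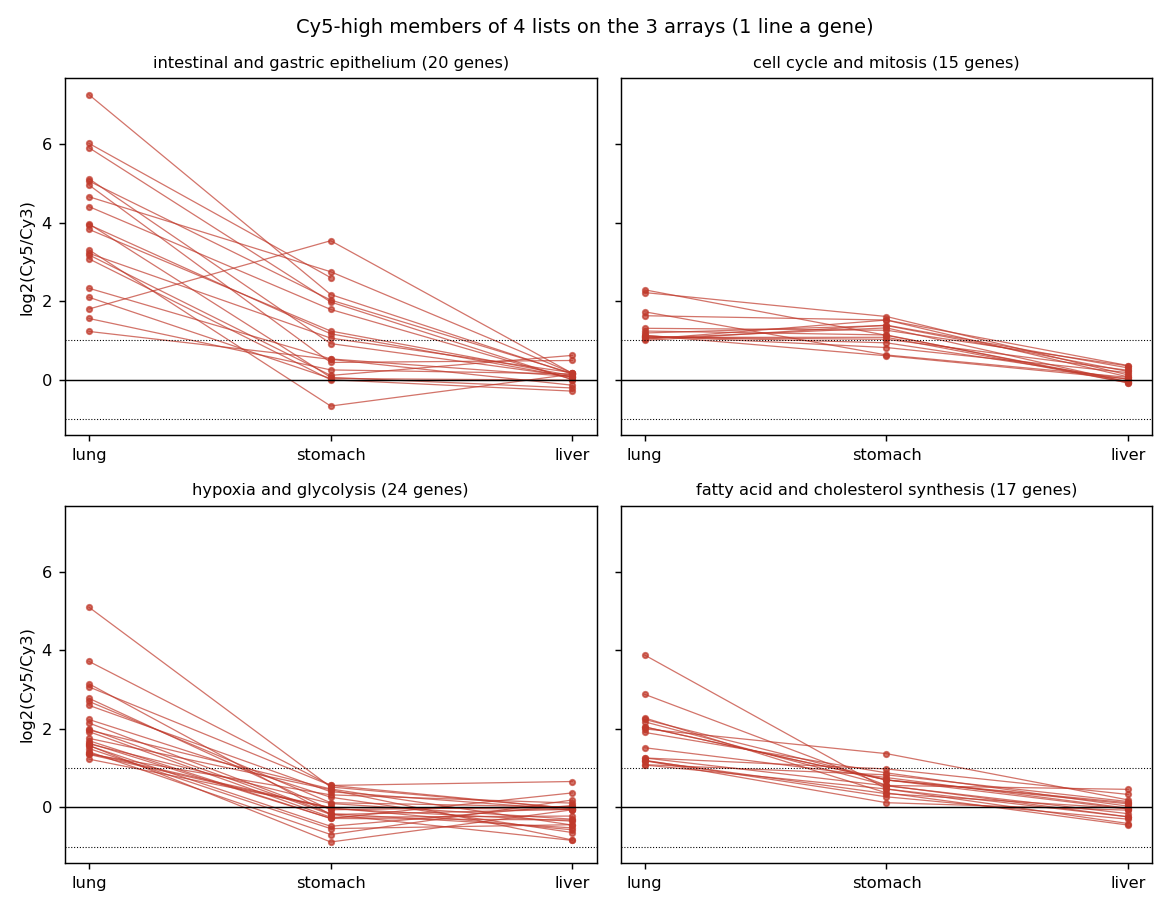
Log2(Cy5/Cy3) on the lung, stomach and liver arrays of the genes Cy5-high in lung from 4 lists, 1 line a gene; dotted lines mark 2-fold. Cell cycle genes keep ratios of 0.61 to 1.61 in stomach, hypoxia and glycolysis genes spread around 0 there, and in liver none of the genes of these 4 lists reaches 2-fold.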

How the data were processed

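Each organ was measured on 1 two-channel Agilent mouse array from 500 ng of RNA. Signals were extracted with Agilent Feature Extraction 8.5.1.1, per the submitters' processing notes. The deposited lung intensities are dye-normalized processed signals: for liver and stomach, all 3993 rows of the same table equal the scanner files' processed signals. The table's log10 ratios of Cy5 over Cy3 were listed by the authors, by a selection rule not given in the sources used here. From row 2289 of the lung down list (1776 rows) the signal columns change order, so ratios were recomputed from the 2 signals and differed from the listed log10 values by at most 0.00613. Probe names were joined by feature number from a scanner file of the same design. None of its 2256 control spots fell in the lung lists. Of 41174 probes, 79.5% were named by RefSeq (GRCm38.p6) accession, symbol or unique synonym, and the others keep the file's name. Spots were averaged to probes and listed probes to genes. The deposited liver and stomach mean intensities were background-corrected in limma 3.58.1 (R 4.3.3; normexp, offset 50) and loess-normalized. Python 3.11.15, numpy 2.4.6 and pandas 2.3.3 did the rest, and the steps were tested on simulated data. The 43 gene lists and the members were chosen with earlier results of these data known. Genes were named by rule (the 12 highest and 12 lowest, and up to 8 listed members per list and direction; some are not reported here); further list members were named after their values were seen. Alternatives were other fold thresholds, brighter spots, agreement between probes, naming, and normalization of the other arrays; centring and a filter on dim spots were added after seeing the data.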

Additional observations from a re-analysis of the deposited data

Results flagged for a closer look

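Some named genes were at least 2-fold to opposite sides on the lung array and on another array. These differences were not tested, since each organ has 1 array, and the contrasts are unlike: the lung control was another, wild-type mouse, while the liver and stomach controls were nontumour tissue of the tumour's own mouse. Between lung and stomach, 40 genes were Cy5-high in lung and Cy3-high in stomach by 2-fold or more, and 13 the reverse. Among the first, the squamous genes Lgals7 (3.34 in lung, -3.50 in stomach), Lor (1.92 and -4.20), Pkp1 (1.50 and -2.43) and Krt10 (-2.91 in stomach) differed by 6.84, 6.12, 3.92 and 3.92 log2 units. Krt10 only just reached 2-fold in lung, on 1 of its 2 probes, with signals of 260 in Cy3 and 521 in Cy5. Arg1 differed by 5.26, Fabp4 by 4.70, Ltf by 2.80 and Acta1 by 2.35. Among the reverse, Lyz1 (-4.26 in lung, 2.52 in stomach) differed by 6.79. The Wnt targets Sp5 and Axin2 differed by 3.87 and 3.41, and the antigen presentation genes Cd74 and H2-DMb1 by 3.62 and 3.40.

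Between lung and liver, 5 genes were Cy5-high in lung and Cy3-high in liver, and 15 the reverse. Of the former, Mup1 (4.89 in lung, -1.15 in liver) differed by 6.04 and Fn1 by 2.42. Of the latter, Ak7 (-3.61 in lung, 1.61 in liver) differed by 5.22, read from 1 of its 3 probes. Cd36 differed by 4.77, Gsn by 4.51, the imprinted Meg3 by 3.95, Cyp2a5 by 3.65, Ces1g by 3.50 and Gstm2 by 3.46.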

How the results depend on the processing

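No paired analysis was possible because each organ has 1 array. Counts of Cy5-high and Cy3-high genes were 805 and 1812 at 3-fold, 486 and 1098 at 4-fold, 1083 and 1596 with brighter spots only, 307 and 491 with at least 2 listed spots, and 1065 and 1885 with every probe listed; fewer genes can pass each of these. The Cy5-high share stayed between 30.7% and 40.4% over the alternatives that left the centring as it was (35.4% as reported). In the alternatives added after seeing the data, ratios moved by 0.5 towards Cy5 and counted at 4-fold gave 896 and 615 genes (59.3% Cy5-high), and moved by -0.5 gave 269 and 2004 (11.8%). Cy5-high minus Cy3-high members turned to 2 (brighter spots) and 4 (every probe listed) for basement membrane genes and to 1 for repair genes (every probe listed). Lung Cy5-high and Cy3-high genes on the same side of another array numbered 48 and 37 in liver and 294 and 302 in stomach with the scanner software's ratios, and 26 and 1 in liver and 448 and 107 in stomach with median centring and no loess; the cause was not tested. Signal over background in the lung rows is limited by their dim channel, and 1 array gives no error between mice.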
